A study of Mus musculus with 8 samples.

Results

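The genes described here are 8 components of the Nodal pathway in mouse embryonic stem (ES) cells, chosen by name for their role, with earlier results of these data known. The list holds the ligand genes Nodal and Gdf3, the co-receptor gene Tdgf1, the extracellular inhibitor genes Lefty1, Lefty2 and Cer1, and the feedback inhibitor and target genes Smad7 and Skil. They are 8 of the 23337 gene names in the table. Polyadenylated RNA was sequenced from 4 ES cell clones that the paper calls independent, numbered 6, 20, 30 and 36. Each clone was sampled at an early point, passage 6, and at a later one, passage 16, so there were 8 libraries with n = 4 at either point. The labels give both groups the same description but for the passage. They name wild type cells of strain 129S1, from blastocysts with GFP at the Rosa26 locus, grown in DMEM with LIF. The methods name C57BL6 for cultured clones and do not say which cells were sequenced. Libraries held between 21394069 and 34295561 reads on genes, and each clone was sampled once per passage, and p-values therefore measure the spread between these libraries.

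Nodal is a secreted signal of the TGF-beta family that acts through activin receptors with the help of the co-receptor Cripto, and its receptors phosphorylate SMAD2 and SMAD3, which enter the nucleus with SMAD4 and bind DNA with partners such as FOXH1. Among the genes switched on are Nodal itself and its own inhibitors: Lefty proteins block the receptor complex outside the cell, SMAD7 blocks the receptor inside the cell, and SKIL represses SMAD-driven transcription. In cultured ES cells, transcripts of Lefty genes, Smad7 and Skil are commonly read as a gauge of how strongly the pathway is signalling.

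Both Lefty genes lie on chromosome 1 on the plus strand of GRCm38, Lefty2 at chr1:180893108-180899103 and Lefty1 at chr1:180935022-180938400, and they encode closely related proteins. Over 1104 coding bases each, they differed at 90, an identity of 91.9%. Identity was 77.6% in exon 1, 94.3% in exon 2, 98.0% in exon 3 and 95.8% in exon 4. Reads of 50 bases can therefore be assigned with ease in exon 1 and not at all in parts of the later exons, and the stretch that separates them best is shown here because it sets how well the counts of both genes can be told apart. It is the most different 60 coding bases, in exon 1 at chr1:180935143-180935202 for Lefty1 and chr1:180893217-180893276 for Lefty2, with the 18 mismatched bases in capitals.
Lefty1: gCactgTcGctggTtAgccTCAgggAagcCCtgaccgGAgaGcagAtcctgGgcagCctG
Lefty2: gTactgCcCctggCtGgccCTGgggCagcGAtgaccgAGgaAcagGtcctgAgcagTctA
Of 1055 windows of 50 coding bases, 281 (26.6%) were identical between both genes, and 56.5% differed at no more than the 2 mismatches that the alignment allowed. Over whole transcripts, 17.9% of the 50-base words of Lefty1 occurred in another gene, as did 11.6% of those of Lefty2. For Tdgf1 the share was 12.5%, all with the pseudogene Tdgf1-ps1, for Gdf3 2.02% and for Cer1 1.78%, while Nodal, Smad7 and Skil shared none. A read from a shared word may have been dropped or credited to the other gene, so the ratio between Lefty1 and Lefty2 within a library is uncertain in absolute terms, and it is comparable between libraries counted alike.

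Levels were compared between genes as normalized counts (reads divided by a size factor for the library) per kilobase of exon. Tdgf1, which encodes Cripto, stood highest with 7921 ± 537 per kilobase (SD over 8 libraries), above 98.7% of 10998 genes. Lefty1 followed with 1983 ± 565, Gdf3 with 1375 ± 146 and Nodal with 968 ± 49.2. Skil reached 703 ± 127, Lefty2 530 ± 218 and Smad7 467 ± 93.4, all above the median gene at 213. Cer1 was at 0.943 ± 0.662. Tdgf1 exceeded Lefty1 in 8 of 8 libraries, and Gdf3 exceeded Nodal in 8 of 8. The other neighbours in this order overlapped: Lefty1 was above Gdf3 in 7 of 8 libraries, Nodal above Skil in 7, Skil above Lefty2 in 7 and Lefty2 above Smad7 in 5. The cells thus carried far more transcript of the co-receptor than of either ligand.

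**Figure D1:**
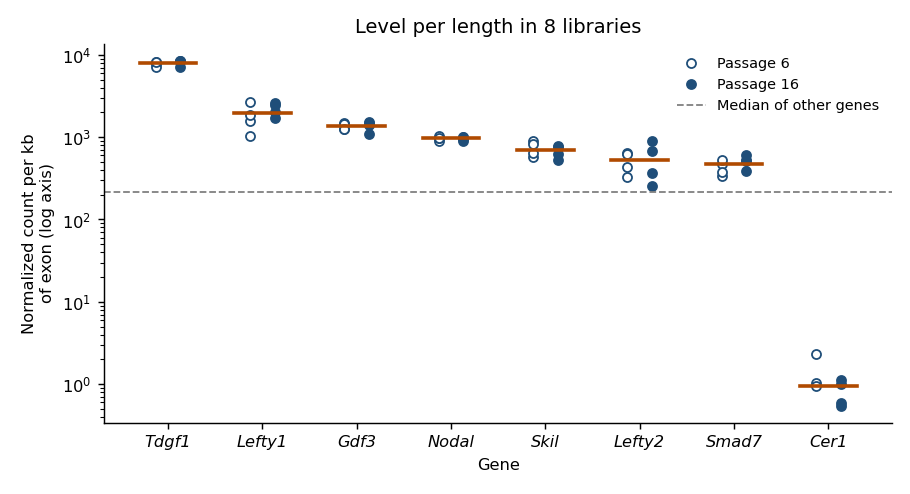
Normalized count per kilobase of exon (log axis) for each gene in each library, with passage 6 as open and passage 16 as filled circles, the mean of 8 libraries as a bar and the median of 10998 genes as a dashed line. A library with no Cer1 read is not drawn. Tdgf1 lies above all other members, and Cer1 lies far below the rest, at 0.943 on average.

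The table was first searched for values that sit on the wrong row. The names are sorted, and in 650 groups of names (5092 names in all) one name continues another with a digit. In these groups, called displaced groups below, values of a library can be displaced against the names. Between 0 and 218 neighbouring lines per library were out of order inside them. Displacement was not shown for each group or name. None of the 8 members lies in such a group. At a member's own row, 0 neighbouring lines were out of order in any library. There the letters of the names set the order whatever the counts, so this 0 could not have come out otherwise. It does not show that the values of a member sit on the right row. Tdgf1 had 1 line out of order within 20 rows, which belonged to other names. Of the wider list of pathway genes used below, Gdf1, Trim33, Gsc and T lie in displaced groups and were left out.

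Nodal itself was the steadiest of these transcripts. At passage 6 it measured 1869, 2017, 2150 and 2069 normalized counts (clones 6, 20, 30 and 36 in that order, here and below), and at passage 16 it measured 1987, 1900, 2124 and 2099. The highest library was 1.15 times the lowest, and both passages overlapped throughout. Means were 2027 ± 118 at passage 6 and 2027 ± 104 at passage 16 (SD, n = 4), a log2 difference of 0.00095 with a standard error of 0.062 (adjusted p = 1.00). The coefficient of variation over 8 libraries was 5.08%, against 2.20% from counting alone and a median of 7.76% for the 4877 genes that averaged 1000 or more.

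Gdf3, a ligand of the same family that also needs Cripto, was equally level on average, with 1 library below the rest. It measured 2702, 3151, 3085 and 2699 at passage 6 and 3213, 2342, 3186 and 2993 at passage 16. Clone 20 held the highest value of passage 6 and the lowest of passage 16, and the passages overlapped. Means were 2909 ± 242 and 2933 ± 406 (SD, n = 4), and the log2 difference was 0.0044 ± 0.11 (SE, adjusted p = 0.998). Its coefficient of variation was 10.6%.

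Tdgf1 differed little between libraries, and the lowest values at both passages came from clone 30. It measured 15985, 14918, 13631 and 15683 at passage 6 and 16125, 16047, 13882 and 16150 at passage 16. Its mean went from 15054 ± 1050 to 15551 ± 1114 (SD, n = 4), a log2 difference of 0.05 ± 0.07 (SE, adjusted p = 0.951), and each of the 4 clones was higher at passage 16 by between 0.01 and 0.11 on the log2 scale. Between clones, the limma F test gave an unadjusted p of 0.0252 and an adjusted p of 0.433. Without clone 30 these were 0.717 and 0.952, so the lower p rests on that clone, and without clone 36 the unadjusted p was 0.0559. DESeq2 on the recovered reads gave an adjusted p of 0.000404 for the same clone term, and called 1120 genes where limma called 20.

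Because Tdgf1 is the most abundant member, its proximal promoter is shown. The window lies between 140 and 61 bases before the RefSeq start, at chr9:110946219-110946298 of GRCm38.p6 on the minus strand, and capitals mark matches to a FOXH1 motif, AATNNACA, and to a short SMAD motif, CAGAC.
Tdgf1: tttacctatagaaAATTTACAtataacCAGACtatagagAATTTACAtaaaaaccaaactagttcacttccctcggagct
Over 250 bases before the start and both strands, Tdgf1 held 2 matches to AATNNACA and 1 to CAGAC, which did not overlap. Of 32851 mouse promoters of that length, 10.9% held AATNNACA, 1.12% held it at least 2 times and 42.2% held CAGAC. Promoters of 3 of the 8 members were in the RefSeq table: that of Cer1 held 1 CAGAC, that of Nodal held neither motif, and a longer SMAD motif, GTCTAGAC, was in none of the 3 and in 0.167% of all promoters. A match is a description of letters and not a measured site.

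**Figure D2:**
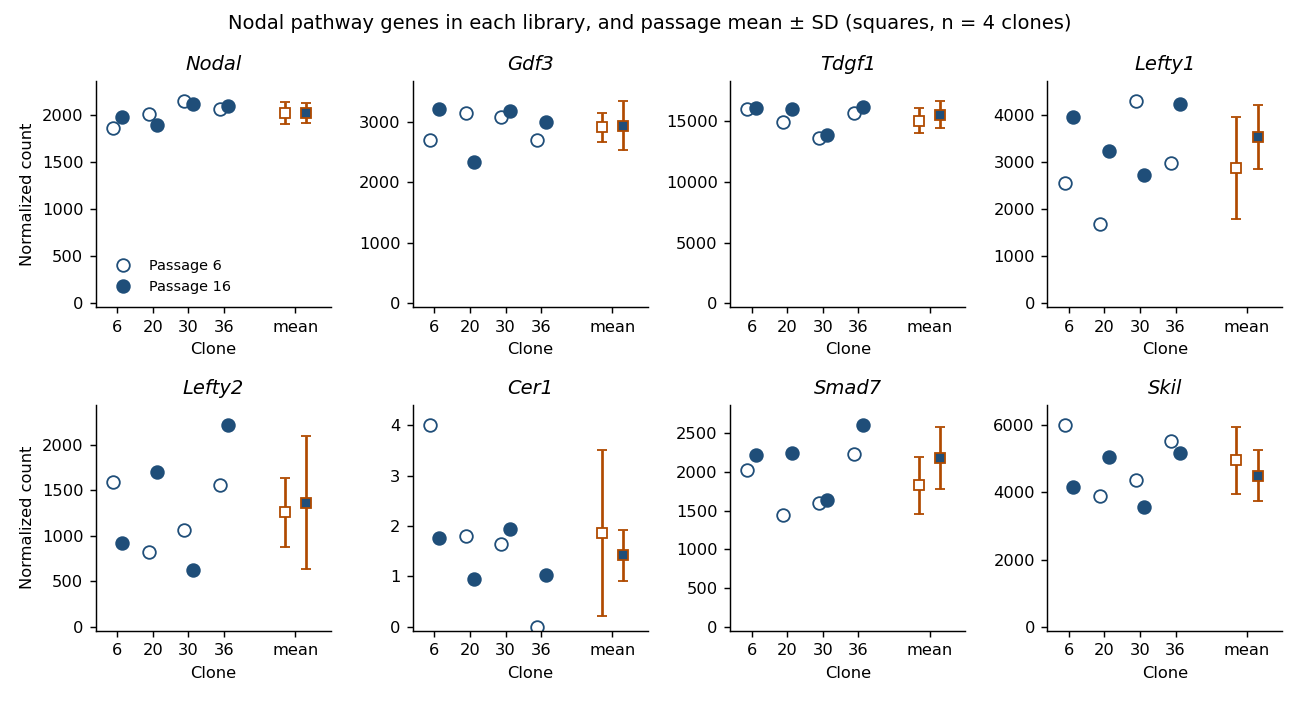
Normalized count of each gene in clones 6, 20, 30 and 36 at passage 6 (open circles) and passage 16 (filled circles), with the mean and SD of the 4 clones of each passage as squares with bars; all vertical axes include 0. Nodal and Tdgf1 stay within a narrow band, while Lefty1 and Lefty2 spread over 2.57-fold and 3.55-fold with overlapping passages.

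The Lefty genes were the most variable of the members that could be tested. Lefty1 measured 2570, 1676, 4304 and 2984 at passage 6 and 3961, 3237, 2730 and 4235 at passage 16. Compared with passage 6, the log2 difference at passage 16 was 0.62 in clone 6, 0.95 in clone 20 and 0.51 in clone 36, and it was -0.66 in clone 30. The means were 2883 ± 1093 and 3541 ± 685 (SD, n = 4), and the log2 difference of 0.36 ± 0.28 (SE, adjusted p = 0.947) did not pass the test. It rested on single libraries: it was 0.12 without clone 20 at passage 6, 0.57 without clone 30 at passage 6 and 0.69 without clone 30 altogether, where limma gave unadjusted p of 0.0422 and 0.0234 for the last 2 and adjusted p of 0.760 and 0.891. The coefficient of variation, 28.5%, exceeded that of 97.2% of the 4877 genes, and counting alone gave 1.74%.

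Lefty2 spread further, with differences of both signs between passages. It measured 1595, 822, 1058 and 1555 at passage 6 and 920, 1698, 625 and 2218 at passage 16. Per clone the log2 difference was 1.05 in clone 20 and 0.51 in clone 36, and it was -0.79 in clone 6 and -0.76 in clone 30. These opposed differences left means of 1258 ± 380 and 1365 ± 727 (SD, n = 4) and a log2 difference of 0.0013 ± 0.42 (SE, adjusted p = 1.00). Its coefficient of variation, 41.2%, exceeded that of 98.9% of the 4877 genes. The 8 libraries fell into 4 between 625 and 1058 and 4 between 1555 and 2218, with 2 of each passage in both ranges.

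Cer1, a secreted inhibitor known from the anterior endoderm of the embryo, was at the limit of detection. It had 3, 2, 2 and 0 reads at passage 6 and 2, 1, 2 and 1 at passage 16, that is 7 and 6 reads per passage. For the library with 0 reads, the upper end of the 95% counting interval was 4.37 normalized counts. It was not tested.

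Smad7, the inhibitor that acts at the receptor inside the cell, was higher at passage 16 in each clone without a call. It measured 2020, 1447, 1601 and 2227 at passage 6 and 2214, 2241, 1639 and 2606 at passage 16. Within clones the differences were 0.13, 0.63, 0.03 and 0.23 on the log2 scale, largest in clone 20 and smallest in clone 30. Means were 1824 ± 362 and 2175 ± 399 (SD, n = 4), a log2 difference of 0.26 ± 0.18 (SE, adjusted p = 0.947). With the clone as a block, the standard error was 0.11, and limma gave an unadjusted p of 0.0686 and an adjusted p of 0.726. With the block, the unadjusted p was 0.0390 in limma on names outside displaced groups and 0.0425 in DESeq2, with adjusted p of 0.647 and 0.554. Its coefficient of variation exceeded that of 93.1% of the 4877 genes.

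Skil, whose protein SnoN binds SMAD complexes and represses their targets, was mostly lower at passage 16. It measured 6009, 3902, 4361 and 5537 at passage 6 and 4163, 5040, 3574 and 5181 at passage 16. Per clone the log2 difference was -0.53 in clone 6, -0.29 in clone 30 and -0.10 in clone 36, and it was 0.37 in clone 20. Means were 4952 ± 985 and 4490 ± 759 (SD, n = 4), and the log2 difference was -0.14 ± 0.17 (SE, adjusted p = 0.947). Its coefficient of variation was 18.0%.

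Of the 7 members with a mean of at least 10, 0 passed the adjusted threshold of 0.05 between passages in limma, where 0.00676% of 14791 names did. At an unadjusted p under 0.05 the count in this fit, which has no term for the clone, was also 0, against 3.50% of all names, and in 0 of 7 did the 4 libraries of one passage lie outside the range of the other, against 2.43%. Tdgf1 and Smad7, 2 of 7, differed in the same direction in 4 of 4 clones, as did 17.4% of all names. Between clones, 0 of 7 passed the adjusted threshold, against 0.135% of all names, and 1 of 7, Tdgf1, had an unadjusted p under 0.05, against 10.7%. Neither passage nor clone therefore separated these transcripts beyond the spread of the libraries in the limma fits, although Lefty1, Lefty2, Smad7 and Skil each varied more than at least 91.2% of the 4877 genes.

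The ratio of both Lefty genes was compared next, since it does not depend on the size factors. Clones 20, 30 and 36 held their ratio from passage 6 to passage 16, and clone 6 did not. In clone 20 there were 2.04 Lefty1 reads per Lefty2 read at passage 6 (95% Wilson interval 1.88 to 2.21) and 1.91 at passage 16 (1.80 to 2.02). In clone 36 the ratio was 1.92 (1.79 to 2.05) and 1.91 (1.81 to 2.01), and in clone 30 it was 4.07 (3.83 to 4.32) and 4.37 (4.01 to 4.76). In clone 6 it was 1.61 (1.50 to 1.73) at passage 6 and 4.31 (4.03 to 4.60) at passage 16. Lefty1 and Lefty2 thus differed between passages in the same direction in clones 20, 30 and 36, and in opposite directions in clone 6. The mean ratio was 2.41 ± 1.12 at passage 6 and 3.12 ± 1.40 at passage 16 (SD, n = 4; exact two-sided permutation test of the log2 ratio, p = 0.429, where 0.0286 is the smallest this design allows). The intervals cover counting error only. Markers of cell types differed between the same libraries: in clone 6 the summed ES cell markers were 50490 at passage 6 and 58651 at passage 16, and the summed primitive endoderm markers, named below, were 5865 and 3804. Clone 30 at both passages and clone 6 at passage 16 were the 3 libraries with ratios above 4. Over the 8 libraries they held the 3 lowest sums of primitive endoderm and of mesendoderm markers, and the 3 highest of ES cell and of trophoblast markers. The ES cell sum of clone 30 at passage 6, 54100, was close to the 54003 of clone 36 at passage 16. Most of the trophoblast sum was Tfap2c, at 2538 of 2826 in clone 6 at passage 16, where Hand1 was at its lowest, 94.7. Sums of primed epiblast and of fibroblast markers did not set these 3 libraries apart. The part of these cell types in the ratio was not tested.

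**Figure D3:**
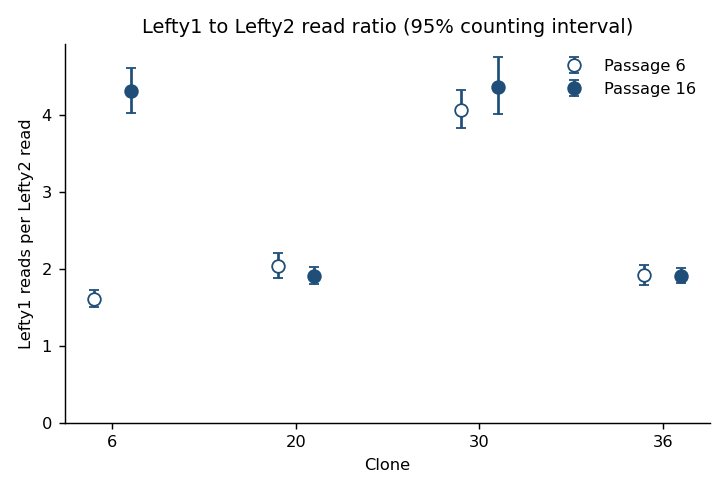
Lefty1 reads per Lefty2 read (vertical axis from 0) in each clone at passage 6 (open) and passage 16 (filled), with 95% Wilson counting intervals. The intervals of both passages overlap in clones 20, 30 and 36, and in clone 6 they are apart, at 1.61 and 4.31.

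The libraries of clone 6 were also the least alike over all genes. Deviations from the passage means correlated between both libraries of a clone with r = 0.0956 in clone 6, 0.271 in clone 20, 0.701 in clone 30 and 0.433 in clone 36, across 12282 genes that are not independent of each other. The passage 6 library of clone 6 correlated more with the passage 16 library of clone 36 (r = 0.281) than with its own. Whether both libraries labelled clone 6 come from 1 clone was not tested.

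Whether inhibitors and targets varied together was described with Pearson's r and Spearman's rho over the 8 libraries, on log2(normalized count + 1). The points are 4 clones at 2 passages, share their size factors within a library and are not 8 independent samples. Lefty2 and Skil were the most alike of the 21 pairs, with r = 0.891 and rho = 0.810. With the passage means removed r was 0.928, and without the 2 libraries farthest from the median of Lefty2 it was 0.919. Of 9442 genes, 0.816% had an r with Lefty2 at least as high as that of Skil, negative r not counted. The pair was picked as the highest of the 21, so this share is not that of a pair set beforehand. Within the 4 libraries of high Lefty2, however, Skil did not follow it: the highest Lefty2 value, 2218 in clone 36 at passage 16, went with 5181 for Skil, below the 6009 of clone 6 at passage 6.

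Smad7 varied with Lefty2 less tightly (r = 0.786, rho = 0.786), and r was 0.660 without the 2 farthest libraries. Between Smad7 and Skil r was 0.656 and rho 0.548, and r was 0.919 with passage means removed, since Smad7 was higher and Skil lower at passage 16. Smad7 also varied with Tdgf1 (r = 0.810, rho = 0.810), and clone 30 was the lowest of passage 16 in both. Between passages, Lefty2 and Skil differed in the same direction in 3 of 4 clones, and Lefty2 and Smad7 in 2. Smad7 and Skil did so in 1 clone, and Smad7 and Tdgf1 in 4. Over the 8 libraries Lefty1 went less closely with these inhibitors: its r was 0.371 with Lefty2, 0.565 with Smad7 and 0.188 with Skil. These values depended on single clones. Without clone 30 they were 0.536, 0.948 and 0.273, and without clone 20 they were 0.179, 0.218 and -0.196.

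The ligands did not follow the inhibitors in these libraries. Nodal had r = 0.298 with Lefty1, -0.320 with Lefty2, -0.269 with Smad7 and -0.484 with Skil. Gdf3 ran opposite to Lefty2 (r = -0.659, rho = -0.762) and to Skil (r = -0.700, rho = -0.762). The values of Gdf3 span only 1.37-fold, and clone 20 at passage 16 carried the lowest Gdf3 beside one of the higher Lefty2 values.

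**Figure D4:**
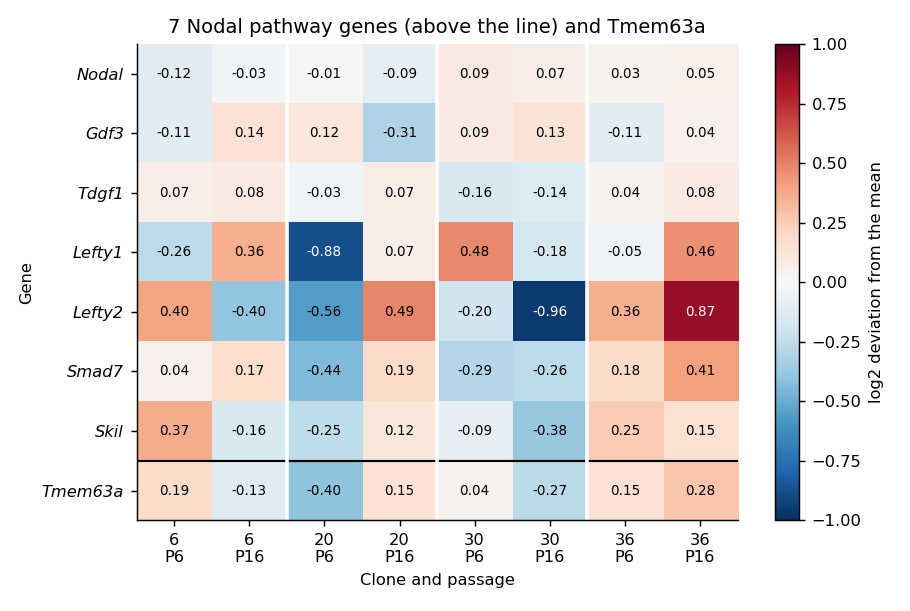
Log2 deviation of each gene from its mean over 8 libraries, with libraries in columns by clone and passage, red for above and blue for below the mean; genes above the black line are the members with a mean of at least 10 and the gene below it is Tmem63a, a neighbour of Lefty1 on the chromosome. Lefty2 and Skil share their sign in all 8 libraries, and Nodal stays between -0.12 and 0.09.

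Genes within 200 kb of the Lefty genes were also looked at, a choice made after values were seen. Tmem63a, which begins 3.88 kb after Lefty1, measured 478, 318, 431 and 465 at passage 6 and 385, 466, 348 and 510 at passage 16. Its r was 0.922 with Lefty2, where 0.212% of genes were as high, and 0.591 with Lefty1, although it lies next to Lefty1. Farther out r with Lefty2 was 0.566 for H3f3a, 0.747 for Acbd3, -0.07 for Ephx1 and 0.09 for Nvl. Reads that run on from one gene into the next were not examined, since the table holds counts per gene, and 0 of these genes passed the test between passages or between clones.

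**Figure D5:**
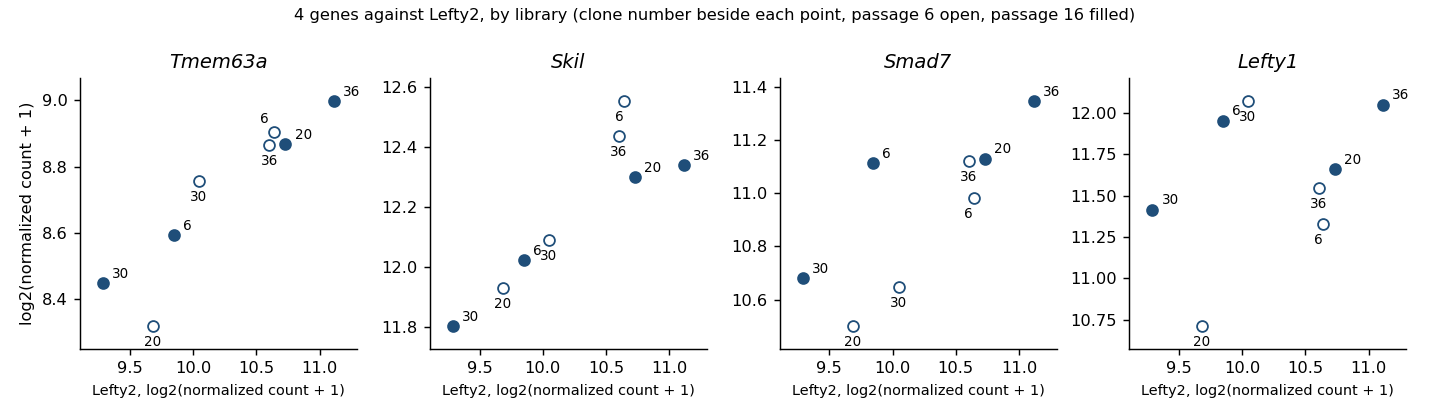
Each panel plots 1 gene against Lefty2 on the log2(normalized count + 1) scale, with 1 point per library, open for passage 6 and filled for passage 16, and the clone number beside it. Tmem63a follows Lefty2 closely (r = 0.922), Skil and Smad7 follow it more loosely (r = 0.891 and 0.786), and Lefty1 does so least (r = 0.371).

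Among the genes most like the mean of both Lefty genes were Shisa3 (r = 0.950), Anapc4 (0.945) and Pcbd1 (0.944), and 10 of the 9436 genes compared were above 0.9. For Nodal the most similar genes were Nuf2 (r = 0.978), 9130401M01Rik (0.966) and Cops4 (0.965), with 19 genes above 0.9, over a range of Nodal of 1.15-fold.

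A wider list of 48 pathway genes was read by role, of which 44 were outside displaced groups and 41 of these had a mean of at least 10. Between passages 0 of 41 passed the adjusted or the unadjusted threshold in limma, against 0.00676% and 3.50% of all names, with 26 higher and 15 lower at passage 16 and a median log2 difference of 0.03, against -0.0037 over all names. Between clones 0 of 41 passed the adjusted threshold, against 0.135% of all names, and 6 of 41 had an unadjusted p under 0.05, against 10.7%, a share near that background: Tdgf1, the activin subunit genes Inhba and Inhbb, Smad3, Pmepa1 and Id3. Among ligand genes, 5 of 6 were tested and Gdf3 had the highest level per kilobase. Acvr1c, Cfc1 and Cer1 were below a mean of 10.

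Levels of the remaining roles differed more between genes than between passages. Of the convertases that process Nodal, Pcsk6 was higher per kilobase than Furin, at 313 against 243, and it ranged from 1070 to 2060 normalized counts. Of the signal transducers, 3 of 5 were higher at passage 16, and the E protein gene Tcf3 was highest at 1526 per kilobase. Among the 12 intracellular inhibitors Drap1, whose product restrains FOXH1, was highest per kilobase at 1734 and spanned 1.09-fold over libraries, against 1.80-fold for Smad7 and 1.68-fold for Skil. Of 7 other targets outside displaced groups, 5 were higher at passage 16, and Id1 was highest at 386 per kilobase.

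The libraries carried the markers of ES cells: Pou5f1 was between 23589 and 29184 normalized counts, Nanog between 6636 and 9071 and Esrrb between 9463 and 12587. Sox2 and Zfp42 lie in displaced groups and were left out. Of the other 6 ES cell markers, 0 were called between passages in limma. Nanog, Klf4 and Tbx3, 3 of 6, had an unadjusted limma p under 0.05, against 3.50% of all names, and were higher at passage 16. Several lists of cell type markers, and not 1 alone, went with some members. The first is primitive endoderm, an extraembryonic lineage that forms beside ES cells in culture. Of its markers, Sox17 and Amn lie in displaced groups and were left out. The summed count of the other 7 (Gata4, Gata6, Sox7, Dab2, Pdgfra, Foxa2 and Cubn) ranged from 3531 to 12424 at passage 6 and from 2448 to 10289 at passage 16. By clone it was 5865, 5290, 3531 and 12424 at the early point and 3804, 10289, 2448 and 8579 at the late one. With this sum r was 0.829 for Lefty2, 0.760 for Skil, 0.636 for Smad7 and 0.01 for Lefty1, and -0.744 for Gdf3 and -0.343 for Nodal. None of the 7 was at 0 in any library, 0 were called between passages, and 7 of 7 had a lower mean log2 value at passage 16. The mesendoderm markers T and Gsc lie in displaced groups and were left out. The sum of the other 4 (Mixl1, Eomes, Evx1 and Foxa2, the last of which is also on the primitive endoderm list) was lower, from 182 to 381 at passage 6 and from 179 to 465 at passage 16. It went with the same members at least as closely, with r of 0.867 with Lefty2, 0.829 with Skil, 0.726 with Smad7, 0.02 with Lefty1 and -0.851 with Gdf3. Most of it came from Eomes (mean 209) and Foxa2 (70.6), against 13.4 for Mixl1 and 7.03 for Evx1. Eomes, Foxa2 and Mixl1 are also on the list of other targets, and their r with Lefty2 was 0.805, 0.747 and -0.03. Eomes is on the trophoblast list too. The sum of the 6 ES cell markers, 50490 to 54100 at passage 6 and 53286 to 59087 at passage 16, ran opposite, with r = -0.805 for Skil and -0.683 for Lefty2. Pou5f1, with a mean of 25674, was the largest part of this sum. The sum of the 4 primed epiblast markers, 12053 to 16350 and 8870 to 13419, had r = -0.830 with Smad7 and -0.798 with Tdgf1. Most of this sum was Dnmt3b, with a mean of 9581, against 1419 for Pou3f1, 963 for Otx2 and 117 for Fgf5. Otx2 itself had r = -0.433 with the sum, so these values describe mainly Dnmt3b and not the list as a whole. The part of any of these cell types in the pattern of Lefty2, Skil and Smad7 was not tested, and in bulk RNA fewer cells of a type and less RNA per cell cannot be told apart. Fibroblast markers, 7 genes, summed to between 3746 and 5781 at passage 6 and between 4388 and 5810 at passage 16.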

How the data were processed

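The authors aligned 50-nt single-end reads of stranded libraries to GRCm38 with TopHat2 (version 2.0.10) and Bowtie (1.0.0), and counted them per gene with HTSeq; the use of strand in counting is not given in the sources used here. Each deposited value is a signal, the authors' count for a gene over a DESeq2 size factor. Multiplied back, 100% of values were within 0.01 of a whole read. Samples were grouped by passage; the labels give the clone, which pairs them. The main test was limma (3.58.1, R 4.3.3; eBayes with trend) on log2(normalized count + 1) for the 14791 names averaging 10 or more. It was two-sided, had no term for the clone and was Benjamini-Hochberg adjusted; the clone was tested with an F test beside passage. This scale understates the change of low genes. edgeR (4.0.16) and DESeq2 (1.42.0) on recovered reads, other filters, pseudocounts and scalings, a clone block and left-out libraries and clones were alternatives. limma was tested on simulated data. Between passages it called 41% of 100 genes with a log2 change of 1 and 91% of 100 with a log2 change of 2, with 6 false calls. Between clones it called 56% of 200 genes with a log2 change of 2 in 1 clone, with 18 false calls. Changes of these sizes can therefore go uncalled. Lengths and coordinates came from GENCODE M21 and RefSeq. Members and lists were chosen with earlier results of these data known. Named pathway genes were those past a threshold, under a mean of 10, or highest per kilobase in a role, and the 5 (both Lefty genes) or 3 (Nodal) most similar names with a mean of at least 100 outside displaced groups; Cer1 was too low for this. Names and a sequence that this rule would add are in part not reported here.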

Additional observations from a re-analysis of the deposited data

Results flagged for a closer look

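Tdgf1 in clone 30 at passage 16, with 13882 normalized counts, lay far below the other 3 clones of that passage, which were between 16047 and 16150. The gap to the nearest clone was 0.955 of the range of the group. Among the 16 groups examined chance would give about 0.8 such cases. The passage 6 library of the same clone was also the lowest of its passage, at 13631.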

How the results depend on the processing

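Between passages limma called 1 of 14791 names, and 0 outside displaced groups. DESeq2 called 46 (18 higher at passage 16). With the replicate block, which pairs libraries of 1 clone, limma called 0, also outside displaced groups (an alternative chosen after seeing the data), edgeR 2 and DESeq2 98. Leaving out libraries or clones gave between 1 and 26 calls, the most without clone 30 (26, and 13 or 12 without its passage 6 or passage 16 library). Between clones limma called 20 names, of which 8 lie outside displaced groups (0.0651% of 12282); refitted on those 12282 alone it called 62, DESeq2 called 1120, and limma called between 0 (without clone 20) and 95 (without clone 6) with a clone left out. Causes of these shifts were not tested. Of 252 alternatives for the members, 228 kept direction and side of the threshold, 1 passed it (the clone term of Tdgf1 in DESeq2) and 23 turned the sign of a change near 0, none of them called: Nodal (-0.0011 in DESeq2, -0.037 to 0.032 with libraries left out), Gdf3 (-0.077 to 0.15), Tdgf1 (-0.00026 to 0.10) and Lefty2 (-0.35 to 0.32, and -0.0011 with the replicate block in DESeq2). With libraries or clones left out, Lefty1 ranged from 0.12 (without clone 20 at passage 6) to 0.69 (without clone 30), Smad7 from 0.13 (without clone 20) to 0.39 (without clone 30 at passage 16) and Skil from -0.30 (without clone 20) to -0.0046 (without clone 6), none of them called. The lowest adjusted p for a member between passages was 0.554, for Smad7 with the replicate block in DESeq2; the replicate block changed no call of a member. Depth did not limit members other than Cer1, whose 13 reads allow no comparison.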
